A study of Mus musculus with 32 samples.

Results

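The microRNAs of induced neurons that lacked the imprinted cluster from miR-379 to miR-410 were compared with those of the stem cells they came from. Deletion induced neurons (iNs) and deletion embryonic stem cells (ESCs) carried the genotype Mirg(Delta/+), in which the maternal copy of the cluster was removed. Control iNs and control ESCs were Mirg(fl/+), with a floxed allele that was still present. All cells were hybrid mouse cells. ESCs were sampled at day 0 in medium with 10% FBS and the cytokine LIF, and iNs at day 10 of doxycycline induction of a TetO-Ngn2 transgene, which drives the neurogenic factor Neurog2. Each group had 3 small RNA libraries, of 12 in all and of 32 libraries in the series, and the labels do not say whether the replicates were separate cultures or clones. The p-values below therefore measure the spread between these libraries, which may be technical. The members were the mature microRNA entries of the 6 deletion libraries. Of these, 828 had a name, and 453 passed the filter on low counts and were tested.

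A microRNA is cut from a hairpin by Drosha and Dicer1, and either the 5p or the 3p arm is usually kept by an Argonaute protein as the guide strand. Bases 2 to 8 of the guide, the seed, set which transcripts it represses, so microRNAs of different genes that share a seed can act on the same targets. Mouse ESCs are known for the clusters from miR-290 to miR-295, miR-302 to miR-367 and miR-17 to miR-92, and neurons for miR-124, miR-9, miR-137, miR-138 and let-7. The removed cluster lies in the Dlk1-Dio3 imprinted domain on chromosome 12 and is expressed from the maternal copy in brain and embryo.

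The mature sequences below carried most of the comparison. They are RefSeq sequences of build GRCm38.p6, written 5′ to 3′ with the seed in capitals. The first block shows microRNAs that fell in deletion iNs, most of them abundant in deletion ESCs, with the scarcer miR-291a-3p shown for its shared seed. MiR-295-3p (chr7:3220815-3220837, plus strand), miR-291a-3p (chr7:3218968-3218989, plus strand) and miR-302b-3p (chr3:127545275-127545297, plus strand) share AAGUGCU. MiR-93-5p (chr5:138165574-138165596, minus strand), miR-20b-5p (chrX:52742159-52742181, minus strand), miR-20a-5p (chr14:115044183-115044205, plus strand) and miR-106a-5p (chrX:52742541-52742563, minus strand) share AAAGUGC, the same letters displaced by 1 base.
miR-295-3p: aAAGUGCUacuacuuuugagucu
miR-291a-3p: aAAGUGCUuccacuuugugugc
miR-302b-3p: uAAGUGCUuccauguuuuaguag
miR-93-5p: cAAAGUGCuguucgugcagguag
miR-20b-5p: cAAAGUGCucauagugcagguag
miR-20a-5p: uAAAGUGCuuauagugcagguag
miR-106a-5p: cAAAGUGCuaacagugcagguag
miR-19b-3p: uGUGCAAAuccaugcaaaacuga
miR-25-3p: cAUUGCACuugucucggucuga
miR-16-5p: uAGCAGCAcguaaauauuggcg
miR-15b-5p: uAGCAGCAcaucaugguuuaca
miR-429-3p: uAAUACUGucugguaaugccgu

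The next block shows microRNAs that rose. MiR-182-5p (chr6:30165962-30165986) and miR-183-5p (chr6:30169711-30169732) lie together on the minus strand, and their seeds differ. MiR-137-3p (chr3:118433901-118433923, plus strand) has a seed of its own among the abundant microRNAs. Let-7c-5p (chr15:85706616-85706637, plus strand) and let-7b-5p (chr15:85707325-85707346, plus strand) share GAGGUAG.
miR-182-5p: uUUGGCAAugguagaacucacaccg
miR-183-5p: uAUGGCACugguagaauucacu
miR-137-3p: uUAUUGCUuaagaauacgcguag
miR-138-5p: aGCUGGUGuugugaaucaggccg
miR-103-3p: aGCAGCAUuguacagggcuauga
let-7c-5p: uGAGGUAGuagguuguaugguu
let-7b-5p: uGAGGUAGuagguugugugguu
miR-127-3p: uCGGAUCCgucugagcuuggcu
miR-370-3p: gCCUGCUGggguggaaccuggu

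The last block shows the opposite arms of miR-182 and miR-183, whose counts were 0 in deletion iNs, and miR-382-5p (chr12:109733781-109733802, plus strand), the member of the removed cluster with the most counts left in deletion cells.
miR-182-3p: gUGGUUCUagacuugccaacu
miR-183-3p: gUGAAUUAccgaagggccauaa
miR-382-5p: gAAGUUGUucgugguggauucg
Of the 88 microRNAs that the rule for naming picked, 79 had a RefSeq sequence of the length given in the files.

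The cell labels held in matched RNA-seq of the deletion cells, with 3 libraries per group. All 11 pluripotency markers fell in iNs and all 12 neuronal markers rose, at an edgeR adjusted p under 0.05. Of all 17524 genes tested 44.9% fell and 44.6% rose, 89.4% in either direction. Pou5f1, a core pluripotency factor, had 0.604, 0.631 and 0.405 CPM (scaled counts for each 1e+06 reads) in deletion iNs, against 597, 563 and 540.0 CPM in deletion ESCs. Neurog2 had 646, 582 and 581 CPM in deletion iNs, against 8.67, 10.3 and 10.4 CPM in deletion ESCs, and its reads may include the transgene. Glial markers summed to 3.04 to 3.95 CPM in deletion iNs, against 1.73 to 1.84 CPM in deletion ESCs. Of the 2 glial markers tested, 1 rose and none fell. S100b, which rose, had 2.32, 2.68 and 1.97 CPM in deletion iNs and 0 in deletion ESCs, at least 44.99-fold higher against the floor of 3 counts over the group, and Gfap was at 0 in deletion iNs. Fibroblast markers summed to 5.67 to 7.10 CPM in deletion iNs, against 87.9 to 98.2 CPM in deletion ESCs. Of the 5 tested, 4 fell and 1 rose, and over the whole list Dcn and Lum were at 0 in deletion iNs. The one that rose was Pdgfra, with 5.64, 6.999 and 5.21 CPM in deletion iNs, against 1.54, 0.994 and 1.05 CPM in deletion ESCs (log2 fold change 2.30 ± 0.22, edgeR adjusted p = 4.61e-07). In bulk libraries, fewer cells of a type and less RNA per cell cannot be told apart. The small RNA libraries held 3038112 to 3265640 counts in deletion iNs, against 3827265 to 4076924 in deletion ESCs, and mature microRNAs made up 29.0 to 30.1% against 21.4 to 25.9%. Across microRNAs, libraries of 1 group correlated at r of at least 0.984, and libraries of different groups at r of at most 0.558.

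Nearly all measured microRNAs differed between deletion iNs and deletion ESCs. Of 453 tested, 187 rose (41.3%) and 211 fell (46.6%) in deletion iNs, 87.9% in all, at an edgeR adjusted p under 0.05, and 163 of the rises and 187 of the falls were at least 2-fold. The groups of 3 libraries each did not overlap for 399 microRNAs (88.1%). The median log2 fold change was -0.25, and it was -0.06 when libraries were scaled to the sum of all features. Because most microRNAs were called, the lists below are read by the size and the one-sidedness of their changes.

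The most abundant microRNA of deletion iNs was miR-182-5p, which is known from sensory organs and lies in a cluster with miR-183 and miR-96. It had 239591, 261523 and 296549 CPM in deletion iNs, against 46505, 51777 and 51472 CPM in deletion ESCs, where CPM is relative to all mature microRNA counts after scaling. All deletion iN libraries stood above all deletion ESC libraries (log2 fold change 2.41 ± 0.14 (SE, n = 3 each), edgeR adjusted p = 1.98e-10). MiR-183-5p had 93062, 109280.0 and 132752 CPM in deletion iNs, against 15916, 15193 and 12465 CPM in deletion ESCs. MiR-96-5p had 13009.7, 14755 and 16415 CPM in deletion iNs, against 7764, 5898 and 4200.1 CPM in deletion ESCs. Both rose (log2 fold change 2.94 ± 0.17 and 1.31 ± 0.19, edgeR adjusted p = 1.18e-10 and 9.11e-06), miR-183-5p by more than miR-96-5p. The cluster as a whole made up 34.6 to 38.7% of mature counts in deletion iNs, against 6.97 to 7.84% in deletion ESCs. Of its 6 tested arms 3 rose and 2 fell, and the median over the 6 was 0.42. The 3 that rose were the 5p arms.

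MiR-137-3p, a neuronal microRNA, was the fourth most abundant in deletion iNs and scarce in deletion ESCs. It had 31743, 33887 and 47436 CPM in deletion iNs, against 43.3, 42.3 and 52.0 CPM in deletion ESCs (log2 fold change 9.68 ± 0.24 (SE, n = 3 each), edgeR adjusted p = 3.93e-14). MiR-103-3p, encoded in introns of the pantothenate kinase genes, had 29527, 30952 and 34174 CPM in deletion iNs, against 7372, 8326 and 10288 CPM in deletion ESCs (log2 fold change 1.86 ± 0.15 (SE, n = 3 each), edgeR adjusted p = 1.01e-08). MiR-127-3p, an imprinted microRNA encoded between Meg3 and the removed cluster, had 28553, 31059.8 and 34796 CPM in deletion iNs, against 14908, 14710.1 and 13876 CPM in deletion ESCs (log2 fold change 1.12 ± 0.14 (SE, n = 3 each), edgeR adjusted p = 1.13e-06). For each of these 3 microRNAs the groups did not overlap. MiR-335-5p, miR-27b-3p and miR-191-5p, also among the 10 most abundant of deletion iNs, rose by 0.68, 0.82 and 0.79 on the log2 scale.

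MiR-16-5p, which restrains cell cycle genes, was the most abundant microRNA of deletion ESCs and the third in deletion iNs. It had 68245, 74111 and 85312 CPM in deletion iNs, against 123316, 141107 and 142253 CPM in deletion ESCs (log2 fold change -0.84 ± 0.14 (SE, n = 3 each), edgeR adjusted p = 3.71e-05). The groups did not overlap, and the fall was the smallest among the 10 most abundant microRNAs of deletion ESCs that fell. Of those 10, miR-182-5p rose and the other 9 fell, with log2 fold changes of -1.54 for miR-130a-3p, -1.63 for miR-25-3p, -1.63 for miR-93-5p, -1.95 for miR-7a-5p, -2.45 for miR-19b-3p, -3.04 for miR-20a-5p, -5.78 for miR-20b-5p and -6.20 for miR-295-3p.

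**Figure D1:**
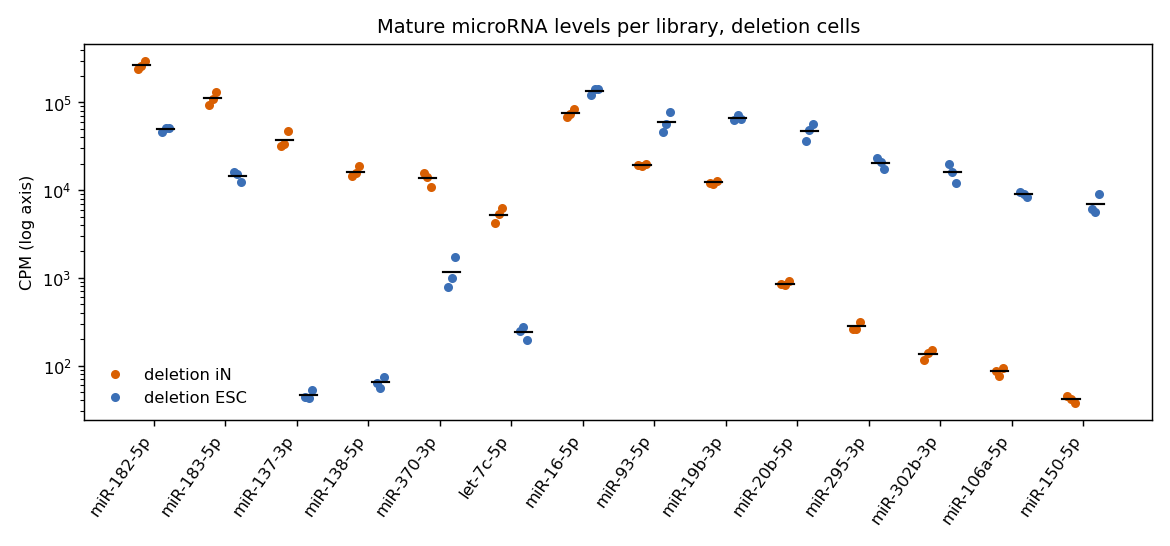
Scaled CPM of 14 abundant or strongly changed microRNAs in each library, on a log10 axis, with libraries as points (deletion iNs left, deletion ESCs right) and group means as bars. MiR-182-5p lies at 239591 to 296549 CPM in deletion iNs, against 46505 to 51777 CPM in deletion ESCs, and in none of the 14 do the groups overlap.

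The microRNAs that mark ESCs fell almost without exception. All 13 tested members of the cluster from miR-290 to miR-295, the main microRNA cluster of mouse ESCs, fell, with a median log2 fold change of -6.43. All 9 tested members of the miR-302 and miR-367 cluster, which is active in pluripotent and early embryonic cells, fell with a median of -5.08. The first cluster made up 0.0641 to 0.0709% of mature counts in deletion iNs, against 5.25 to 6.37% in deletion ESCs, and the second 0.0428 to 0.049% of mature counts in deletion iNs, against 2.14 to 3.94% in deletion ESCs. MiR-295-3p had 263, 262 and 313 CPM in deletion iNs, against 23393, 21071 and 17229 CPM in deletion ESCs (log2 fold change -6.20 ± 0.19 (SE, n = 3 each), edgeR adjusted p = 1.205e-13). MiR-302b-3p had 116, 140.2 and 150.1 CPM in deletion iNs, against 20095, 16158 and 12209.8 CPM in deletion ESCs (log2 fold change -6.90 ± 0.23 (SE, n = 3 each), edgeR adjusted p = 2.16e-13). In each case every deletion iN library was far below every deletion ESC library. MiR-292a-5p, miR-293-3p, miR-302a-5p and miR-302b-5p, also picked by the naming rule, fell by 6.61, 8.49, 5.31 and 5.47 on the log2 scale. In the matched RNA, the sum of the 11 pluripotency markers was 30.8 to 33.9 CPM in deletion iNs, against 2985 to 3155 CPM in deletion ESCs. The part of residual stem cells in the iN values was not tested.

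The cluster from miR-17 to miR-92 and its paralogs, which promote proliferation, lost most of their share. They made up 4.55 to 4.95% of mature counts in deletion iNs, against 28.2 to 30.6% in deletion ESCs. Of 20 tested arms 19 fell and none rose, and the remaining arm, miR-17-3p, had a log2 fold change of -0.47 ± 0.23 (edgeR adjusted p = 0.0631). The minor arm miR-92a-1-5p of the original cluster was at 0 in deletion iNs and is given with the largest falls. In the X-linked paralog cluster the log2 fold changes included -6.71 for miR-106a-5p, -6.29 for miR-18b-5p and -5.78 for miR-20b-5p. MiR-20a-5p and miR-19b-3p of the original cluster fell by 3.04 and 2.45, and miR-93-5p and miR-25-3p of the paralog cluster in Mcm7 on chromosome 5 by 1.63 and 1.63. MiR-20b-5p had 842, 824 and 909 CPM in deletion iNs, against 36799, 48035 and 57129 CPM in deletion ESCs, and miR-93-5p had 19583, 18716 and 19778 CPM in deletion iNs, against 46048, 56540.4 and 77590.3 CPM in deletion ESCs. MiR-19b-3p is encoded at both chr14:115044358-115044380 and chrX:52741991-52742013, and its counts do not tell them apart.

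The microRNAs of the Sfmbt2 intron, a rodent repeat cluster expressed in ESCs and placenta, all fell. All 35 tested members did so, with a median of -5.40, or -5.25 with members at 0 in deletion iNs set to their bound. They made up 0.177 to 0.193% of mature counts in deletion iNs, against 2.79 to 3.71% in deletion ESCs. MiR-467c-5p had 85.0, 53.8 and 101 CPM in deletion iNs, against 10901, 8920.3 and 7664 CPM in deletion ESCs (log2 fold change -6.85 ± 0.24 (SE, n = 3 each), edgeR adjusted p = 4.27e-13). Many of these microRNAs are near-identical copies, so the split of reads among them is uncertain and they are not independent of each other. The host gene Sfmbt2, an imprinted polycomb gene, fell by 3.17 on the log2 scale in the RNA-seq, with 37.5, 39.0 and 41.7 CPM in deletion iNs, against 353, 355 and 354 CPM in deletion ESCs.

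The miR-200 family and miR-205, which maintain epithelial character by repressing Zeb1 and Zeb2, fell in all 11 tested arms with a median of -5.64. They made up 0.0578 to 0.0673% of mature counts in deletion iNs, against 1.44 to 1.77% in deletion ESCs. MiR-429-3p had 109.9, 133 and 113 CPM in deletion iNs, against 3999, 3640.2 and 3942 CPM in deletion ESCs (log2 fold change -5.02 ± 0.17 (SE, n = 3 each), edgeR adjusted p = 2.38e-13). MiR-205-5p had 26.1, 22.1 and 39.6 CPM in deletion iNs, against 1533, 1283 and 1542 CPM in deletion ESCs (log2 fold change -5.64 ± 0.22 (SE, n = 3 each), edgeR adjusted p = 1.44e-12). The groups were apart for both. Of the miR-15 and miR-16 family 11 of 13 tested arms fell and none rose, with a median of -1.32, and its share was 7.21 to 7.76% of mature counts in deletion iNs, against 15.0 to 16.0% in deletion ESCs. Both tested arms of miR-221 and miR-222 fell. MiR-34a-5p, a target of p53, had 1428, 1428 and 1716 CPM in deletion iNs, against 7917, 7976 and 7797 CPM in deletion ESCs and fell (log2 fold change -2.37 ± 0.14 (SE, n = 3 each), edgeR adjusted p = 2.33e-10), whereas miR-449a-5p, which has the same seed GGCAGUG, had 224, 206 and 234 CPM in deletion iNs, against 140.2, 110.4 and 104 CPM in deletion ESCs and rose (log2 fold change 0.90 ± 0.19 (SE, n = 3 each), edgeR adjusted p = 3.65e-04).

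Among microRNAs enriched in brain, 24 of 31 tested arms rose and 4 fell, against 41.3% and 46.6% of all microRNAs tested, and the median log2 fold change was 3.35. Together they made up 10.8 to 11.2% of mature counts in deletion iNs, against 5.32 to 5.69% in deletion ESCs. MiR-138-5p, a microRNA of dendrites, had 14408, 15515 and 18959 CPM in deletion iNs, against 63.7, 55.2 and 74.4 CPM in deletion ESCs (log2 fold change 7.98 ± 0.21 (SE, n = 3 each), edgeR adjusted p = 3.93e-14). It is encoded at chr8:94324312-94324334 and at chr9:122682898-122682920, and the 3p arms tell the loci apart. MiR-138-1-3p had 144, 149.7 and 140.5 CPM in deletion iNs and 0 in all deletion ESC libraries, at least 145-fold higher against a floor of 3 counts over the group. MiR-138-2-3p had 312, 360.5 and 369 CPM in deletion iNs, against 2.55, 0 and 3.06 CPM in deletion ESCs. Both copies were thus counted in deletion iNs.

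MiR-124-3p, the most abundant microRNA of adult brain, stayed far from that rank here in mature counts. It had 296, 305 and 333 CPM in deletion iNs, against 11.05, 8.22 and 8.16 CPM in deletion ESCs (log2 fold change 5.05 ± 0.25 (SE, n = 3 each), edgeR adjusted p = 1.85e-11). Every deletion iN library was above every deletion ESC library. The hairpin entry of miR-124 held a further 376.2, 434.4 and 399.1 counts in deletion iNs, 43.1 to 44.7% of its locus counts. Other members, chosen after their values were seen, spanned a wide range. MiR-125b-5p had 20775, 19684 and 15381 CPM in deletion iNs, against 1946, 2154 and 3548 CPM in deletion ESCs. MiR-218-5p, a motor neuron microRNA, had 10728, 10083 and 10321 CPM in deletion iNs, against 429, 425 and 449 CPM in deletion ESCs. MiR-9-5p, an enhancer of neurogenesis, had 3724, 4009 and 4634 CPM in deletion iNs, against 1531, 1488 and 1618 CPM in deletion ESCs. Their log2 fold changes were 2.87 ± 0.22, 4.58 ± 0.15 and 1.41 ± 0.14 (SE, n = 3 each). Of the 4 members that fell, miR-7a-5p was the most abundant, with 9282, 8701 and 10923 CPM in deletion iNs, against 33626, 40498 and 37946 CPM in deletion ESCs (log2 fold change -1.95 ± 0.15 (SE, n = 3 each), edgeR adjusted p = 3.18e-09). MiR-7b-5p, a close relative from a separate gene that was also chosen after its values were seen, had 3212, 3046 and 3889 CPM in deletion iNs, against 209.9, 258 and 224 CPM in deletion ESCs and rose (log2 fold change 3.87 ± 0.17 (SE, n = 3 each), edgeR adjusted p = 4.83e-12). The other 3 that fell were miR-135b-3p, miR-135b-5p and miR-129-5p, with log2 fold changes of -3.16, -1.26 and -0.45.

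The let-7 family, whose maturation is blocked in stem cells by Lin28a, rose in 9 of 12 tested arms and fell in 1. The median was 1.86, and the family made up 1.83 to 2.09% of mature counts in deletion iNs, against 0.474 to 0.575% in deletion ESCs. Let-7c-5p had 4206, 5334 and 6282 CPM in deletion iNs, against 246, 276 and 195 CPM in deletion ESCs (log2 fold change 4.46 ± 0.20 (SE, n = 3 each), edgeR adjusted p = 6.20e-12). Let-7b-5p had 527, 599 and 692 CPM in deletion iNs, against 7.65, 11.7 and 12.2 CPM in deletion ESCs (log2 fold change 5.85 ± 0.25 (SE, n = 3 each), edgeR adjusted p = 3.97e-12). Both were above every deletion ESC library in every deletion iN library. Let-7f-5p and let-7a-5p, the members next in abundance, rose by 1.99 and 1.98, and the arm that fell was let-7d-3p (log2 fold change -1.10 ± 0.38 (SE, n = 3 each), edgeR adjusted p = 0.014). Let-7a-1-3p and let-7c-2-3p have 1 sequence and carried identical counts, so they are 1 measurement. In the RNA-seq, Lin28a had 15.2, 13.2 and 16.2 CPM in deletion iNs, against 499, 483 and 482 CPM in deletion ESCs.

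The other lists were mixed or small. The miR-29 family, which rises as neurons mature, rose in 4 of 5 tested arms with a median of 2.397 and made up 1.58 to 1.74% of mature counts in deletion iNs, against 0.418 to 0.453% in deletion ESCs. MiR-29c-3p had 5302, 5645 and 6910.2 CPM in deletion iNs, against 777, 1071 and 904 CPM in deletion ESCs, whereas miR-29b-3p, which shares its seed AGCACCA, had 759, 756 and 717 CPM in deletion iNs, against 1403, 1155 and 908 CPM in deletion ESCs. MiR-29c-3p rose and miR-29b-3p fell (log2 fold change 2.70 ± 0.17 and -0.64 ± 0.17, edgeR adjusted p = 3.20e-10 and 0.00208). MiR-29b-2-5p, among the 4 that rose, had a log2 fold change of 2.51 ± 0.39, and its locus total fell (-0.42 ± 0.17). Of the miR-30 family 5 of 11 arms rose and 3 fell, with a median of 0.20, and those that fell included miR-30d-3p and miR-30c-1-3p, whose locus totals rose. Of the miR-181 family 3 of 6 rose and none fell, and miR-181a-5p had 15.9, 27.4 and 26.4 CPM in deletion iNs, against 9.35, 9.40 and 3.06 CPM in deletion ESCs. Of the miR-34 and miR-449 family 1 of 6 rose and 3 fell.

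MicroRNAs known from muscle, blood, vessel, liver, pancreas or mesenchyme fell in 16 and rose in 9 of 25 tested arms, with a median of -1.37. MiR-1a-3p, the main microRNA of muscle, had 10651, 10302 and 10925 CPM in deletion iNs, against 405, 456 and 475 CPM in deletion ESCs (log2 fold change 4.58 ± 0.16 (SE, n = 3 each), edgeR adjusted p = 2.399e-13). MiR-216a-5p and miR-217-5p, known from exocrine pancreas and encoded together on chromosome 11, had 1233, 1431 and 1547 CPM and 487, 525 and 743 CPM in deletion iNs, against 5.10, 1.17 and 5.10 CPM and 1.70, 1.17 and 4.08 CPM in deletion ESCs. Their log2 fold changes were 8.42 ± 0.28 and 7.89 ± 0.35 (SE, n = 3 each). MiR-150-5p, known from lymphocytes, had 45.3, 41.1 and 37.2 CPM in deletion iNs, against 6075, 5576 and 9102 CPM in deletion ESCs and fell (log2 fold change -7.38 ± 0.25 (SE, n = 3 each), edgeR adjusted p = 2.16e-13). MiR-1a-3p and miR-217-5p were chosen after their values were seen.

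The microRNAs of the same imprinted domain that lie outside the deletion, between Meg3 and miR-379, mostly rose. Of 24 tested arms 18 rose and 2 fell, with a median of 1.18, and they made up 7.43 to 8.12% of mature counts in deletion iNs, against 3.33 to 3.66% in deletion ESCs. MiR-370-3p had 15882, 14300.4 and 10999.8 CPM in deletion iNs, against 788, 994 and 1744 CPM in deletion ESCs (log2 fold change 3.55 ± 0.26 (SE, n = 3 each), edgeR adjusted p = 1.84e-09). MiR-770-3p, which lies within Meg3, had 847, 875 and 935 CPM in deletion iNs, against 35.7, 17.6 and 37.7 CPM in deletion ESCs (log2 fold change 4.84 ± 0.23 (SE, n = 3 each), edgeR adjusted p = 1.60e-11). The maternally expressed host transcripts moved the same way. Meg3 had 1837, 2103 and 2062 CPM in deletion iNs, against 248, 231 and 233 CPM in deletion ESCs, and Rian had 1081, 1231 and 1137 CPM in deletion iNs, against 340.1, 401 and 399 CPM in deletion ESCs. The 2 arms that fell were miR-431-5p and miR-3070-3p. MiR-431 divided by arm, with a log2 fold change of 2.85 ± 0.22 for the 3p arm and -1.23 ± 0.16 for the 5p arm, and the counts of its whole locus fell (-0.41 ± 0.15). MiR-3070-2-3p, another of the arms that rose (1.77 ± 0.44), likewise had a locus total that fell (-1.20 ± 0.22). Of imprinted microRNAs elsewhere in the genome 7 of 9 tested arms rose and 1 fell, with a median of 1.79. MiR-344f-3p of the Prader-Willi region had 120.1, 97.0 and 90.1 CPM in deletion iNs, against 0, 1.17 and 1.02 CPM in deletion ESCs, and miR-335-3p, the arm that fell, had 489, 444 and 457 CPM in deletion iNs, against 2394, 2108 and 2109 CPM in deletion ESCs. The locus total of miR-335 rose (0.54 ± 0.13), as its 5p arm did.

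**Figure D2:**
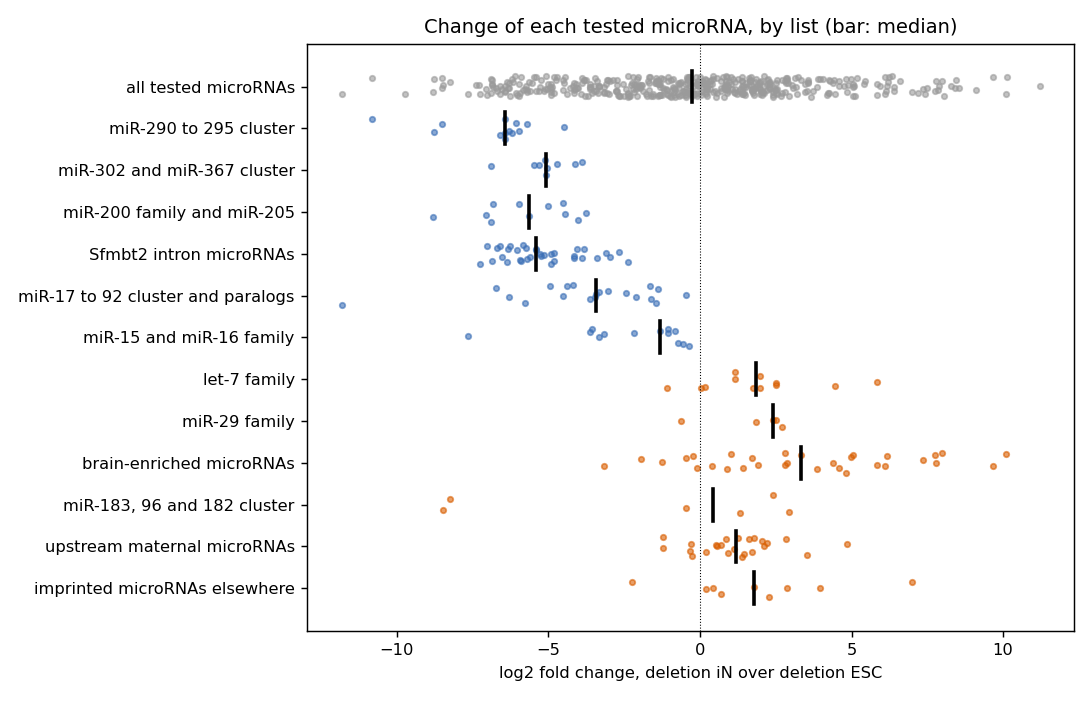
Log2 fold change, deletion iNs over deletion ESCs, of every tested member of 12 microRNA lists and of all tested microRNAs, 1 point per arm, with each list's median as a bar. The members from miR-290 to miR-295 lie at -10.82 to -4.49, and the brain-enriched members at -3.16 to 10.10. Fitted values of members at 0 in a group depend on the prior count and are not bounds.

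In the removed cluster almost nothing was left to change. Of 69 cluster microRNAs in the files, 37 had no count in any of the 6 deletion libraries and 2 could be tested. All cluster counts summed to 524 in deletion iNs and 298 in deletion ESCs. They were 0.0163 to 0.0199% of mature counts in deletion iNs and 0.00799 to 0.0118% in deletion ESCs, whereas the cluster made up 12.1 to 12.8% in control iNs and 7.90 to 8.65% in control ESCs. MiR-382-5p had 94.0, 83.3 and 87.7 CPM in deletion iNs, against 26.3, 35.2 and 21.4 CPM in deletion ESCs (log2 fold change 1.68 ± 0.25 (SE, n = 3 each), edgeR adjusted p = 9.21e-06). MiR-379-5p had 12.5, 7.38 and 14.4 CPM in deletion iNs, against 12.7, 8.22 and 9.17 CPM in deletion ESCs (log2 fold change 0.14 ± 0.40, edgeR adjusted p = 0.744). Mirg, the transcript that hosts the cluster, had 4 RNA-seq counts over the deletion iN libraries and 0 over the deletion ESC libraries. The source of these remaining counts was not tested.

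The largest rises included microRNAs with no count or 1 count in deletion ESCs. MiR-5121 had 329.7, 284 and 322 CPM in deletion iNs and 0 in deletion ESCs, at least 312-fold higher. MiR-873a-3p, miR-5126 and miR-217-3p were also at 0 in deletion ESCs, and were at least 72.3-fold, 40.7-fold and 35.0-fold higher in deletion iNs. MiR-551b-3p had 525, 505 and 522 CPM in deletion iNs, and 1 count in all deletion ESC libraries together. The ratio of its scaled counts was 1555, with a 95% counting interval of 279 to 61475. MiR-873a-5p and miR-1224-5p had 1 count each in deletion ESCs, with ratios of 527 (95% interval 94.2 to 20878) and 487 (95% interval 86.9 to 19272). These intervals and floors cover counting error only. For miR-5126 the files assign at least 94.9% of the locus counts in deletion iNs to the hairpin rather than the mature arm.

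Several of the largest falls were minor arms whose count was 0 in every deletion iN library. MiR-92a-1-5p had 484, 385 and 543 CPM in deletion ESCs and was at least 422-fold lower in deletion iNs. MiR-294-5p, miR-200c-5p, miR-191-3p, miR-183-3p and miR-182-3p were at least 213-fold, 52.5-fold, 42.5-fold, 41.6-fold and 35.4-fold lower. MiR-21a-3p had 1 count over the deletion iNs, against 432, 457 and 417 CPM in deletion ESCs, and miR-291a-3p likewise had 1 count, against 294.8, 233 and 139 CPM. For miR-191, miR-183 and miR-182 the whole locus, hairpin and both arms, moved the other way, with log2 fold changes of 0.89 ± 0.18, 2.79 ± 0.16 and 2.502 ± 0.14. The loci of miR-294, miR-200c, miR-92a-1 and miR-21a fell, by 6.56, 4.54, 2.34 and 3.64.

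A property of the deposited estimates differed between deletion iNs and deletion ESCs beside these arms. The effective length that the files give for a mature entry of 22 bases was 0 in all ESC libraries and 1.05 to 1.07 in deletion iNs, and for an entry of 23 bases it was 0 in ESCs and 1.54 to 1.56 in deletion iNs. For entries of 20 and 21 bases it was 0 in all 12 libraries. In control iNs the value for 22 bases was 1.05, 1.0 and 0, so it did not follow the cell type in every library. Hairpin entries held 22.17 to 22.45% of locus counts in deletion iNs and 26.6 to 28.1% in deletion ESCs. The part of these values in the changes of single arms was not tested. Of the 398 called microRNAs, 364 had a locus total called in the same direction, 15 a locus total that was not called and 19 a locus total called the other way.

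Summed over microRNAs with 1 seed, most seeds changed as well. Families held only microRNAs with a single reference sequence, which made up 95.03% of the mature counts of the deletion libraries. Members without such a sequence are missing from the families, so the shares may fall short of whole seeds. Of 292 seed families tested, 115 rose (39.4%) and 142 fell (48.6%), 88% in all, with the scaling of the family counts themselves, and 142 rose and 114 fell with the scaling factors of the microRNA fit, so the split between rises and falls depends on the scaling. Shares do not depend on it. The AAGUGCU family of miR-295-3p, miR-302b-3p, miR-302d-3p, miR-294-3p and miR-291a-3p made up 0.0579, 0.0595 and 0.0625% of mature counts in deletion iNs, against 6.10, 4.82 and 3.70% in deletion ESCs. Its log2 fold change was -6.16 ± 0.20 (SE, n = 3 each) with the scaling of the microRNA fit and -6.94 ± 0.20 with that of the family fit. The AAAGUGC family of miR-93-5p, miR-20b-5p, miR-20a-5p, miR-106a-5p, miR-17-5p and miR-106b-5p made up 2.396, 2.23 and 2.15% of mature counts in deletion iNs, against 14.3, 15.1 and 17.3% in deletion ESCs. The log2 fold change was -2.63 ± 0.14 (SE, n = 3 each) with the scaling of the microRNA fit and -3.39 ± 0.11 with that of the family fit. All 5 tested members of the first family and all 6 of the second fell (edgeR adjusted p of the families = 3.44e-11 and 8.51e-11).

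The AGCAGCA family, led by miR-16-5p, made up 7.14, 7.43 and 7.69% of mature counts in deletion iNs, against 14.7, 15.6 and 15.6% in deletion ESCs. All 6 of its tested members fell, with a log2 fold change of -0.88 ± 0.13 (SE, n = 3 each) with the scaling of the microRNA fit and -1.64 ± 0.09 with that of the family fit. The GUGCAAA family of miR-19b-3p and miR-19a-3p made up 1.33, 1.24 and 1.197% of mature counts in deletion iNs, against 8.33, 8.69 and 7.55% in deletion ESCs. The AUUGCAC family of miR-25-3p, miR-363-3p, miR-92a-3p, miR-32-5p, miR-367-3p and miR-92b-3p made up 1.16, 1.15 and 1.13% of mature counts in deletion iNs, against 3.87, 4.09 and 4.70% in deletion ESCs. All tested members of both families fell. On the rising side, miR-182-5p stood alone with the seed UUGGCAA and made up 23.99, 25.2 and 25.8% of mature counts in deletion iNs, against 5.18, 5.39 and 5.25% in deletion ESCs. The GCAGCAU family of miR-103-3p and miR-107-3p made up 3.02, 3.06 and 3.04% of mature counts in deletion iNs, against 0.865, 0.907 and 1.10% in deletion ESCs, and both members rose. The seed of miR-137-3p made up 3.18, 3.27 and 4.12% of mature counts in deletion iNs, against 0.00483, 0.0044 and 0.0053% in deletion ESCs. The log2 fold change of the GCAGCAU family was 1.83 ± 0.15 (SE, n = 3 each) with the scaling of the microRNA fit and 1.07 ± 0.12 with that of the family fit. The 6 largest families of each cell type shifted in the same direction under both scalings.

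**Figure D3:**
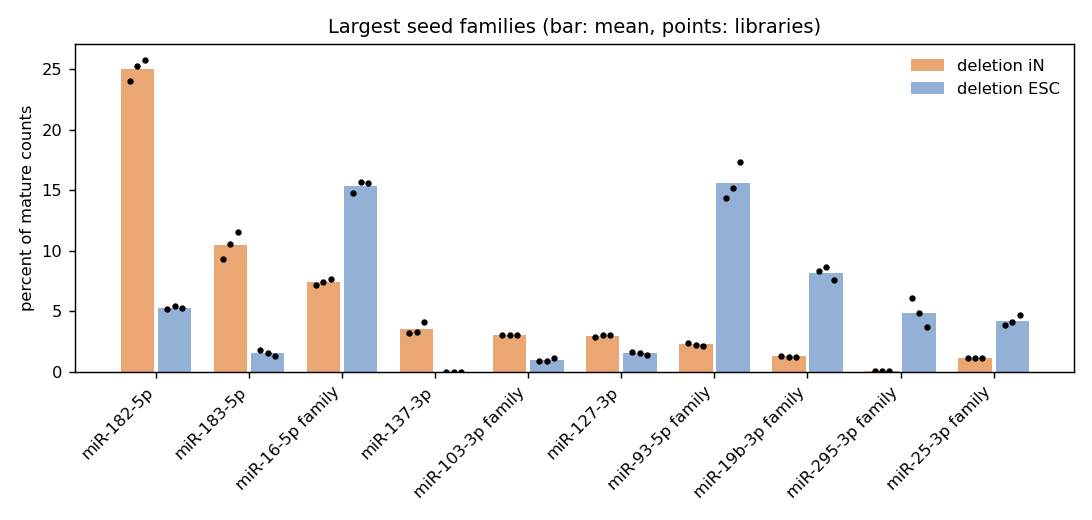
Share of mature counts, in percent, of the largest seed families, with the mean of deletion iNs (left) and deletion ESCs (right) as bars and each library as a point. The AAGUGCU family led by miR-295-3p is at 0.0579 to 0.0625% in deletion iNs, against 3.70 to 6.10% in deletion ESCs.

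The balance between the arms of a hairpin was tested as a ratio within each library. Of 118 hairpins with enough counts, 22 (18.6%) shifted toward the 5p arm and 32 (27.1%) toward the 3p arm in deletion iNs, 45.8% in all (limma, adjusted p under 0.05), and in 8 of these 54 an arm was at 0 in a group. With a minimum of 50 counts for the weaker arm the numbers were 6 and 16, and without deletion ESC replicate B they were 12 and 20. MiR-124 shifted toward 3p, with 235, 249 and 231 counts of the 5p arm and 261, 289 and 277 of the 3p arm in deletion iNs, against 83, 56 and 76 and 13, 7 and 8 in deletion ESCs. The difference of the log2 ratio was -3.11 ± 0.25 (SE, n = 3 each), limma adjusted p = 1.62e-04. Deletion iNs thus had nearly equal counts of both arms, and deletion ESCs more of the 5p arm. MiR-672 also shifted toward 3p, with 2310, 2343 and 2169 counts of the 5p arm and 180, 198 and 163 of the 3p arm in deletion iNs, against 13815, 10316 and 13250 and 115, 84 and 129 in deletion ESCs (-3.18 ± 0.22 (SE, n = 3 each), limma adjusted p = 1.201e-04).

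MiR-182, miR-183, miR-191 and miR-21a shifted toward 5p. MiR-182 had 211475, 248129 and 246975 counts of the 5p arm and 0, 0 and 0 of the 3p arm in deletion iNs, against 54736, 44079 and 50491 and 50, 26 and 44 in deletion ESCs (8.53 ± 0.27 (SE, n = 3 each), limma adjusted p = 2.81e-06). MiR-183 had 82141, 103683 and 110560 counts of the 5p arm and 0, 0 and 0 of the 3p arm in deletion iNs, against 18733, 12934 and 12227 and 42, 36 and 63 in deletion ESCs (9.30 ± 0.37 (SE, n = 3 each), limma adjusted p = 5.99e-06). The differences for miR-191 and miR-21a were 7.22 ± 0.44 (SE, n = 3 each), limma adjusted p = 6.59e-05, and 6.51 ± 0.49 (SE, n = 3 each), limma adjusted p = 1.41e-04. In each case the 3p arm was at 0 or 1 count in deletion iNs. Since 1 arm was at or near 0, these differences depend on the pseudocount of 0.5 and are no bound. Where the 3p arm was at 0, the spread of the ratio in deletion iNs is that of the 5p counts alone. The SE and p-values of these hairpins therefore do not measure the spread of arm use. Their 3p arms passed the filter on the weaker arm through the deletion ESCs. The hairpin entry of miR-21a held 16.3 to 18.5% of its locus counts in deletion iNs and 58.5 to 64.3% in deletion ESCs, that of miR-182 12.1 to 12.6% and 8.62 to 10.1%, and that of miR-183 25.8 to 26.1% and 33.0 to 38.7%. The hairpin entry of miR-124 held 43.1 to 44.7% in deletion iNs and 37.9 to 46.8% in deletion ESCs. Their part in the arm shifts was not tested.

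The same switch was measured in control cells, with other libraries. Control iNs against control ESCs gave 217 rises (41.5%) and 231 falls (44.2%) among 523 microRNAs, 85.7% in all. Of 441 microRNAs tested in both genotypes, 362 were called in both, and each of the 362 had the same direction. They were 93.5% of those called in deletion cells and 94.5% of those called in control cells, within the 441. Across the 441 the log2 fold changes of deletion and control cells correlated at Pearson r = 0.974 as a description, and the median absolute difference was 0.43. In control cells the cluster from miR-290 to miR-295 had 0 rises and 13 falls among 13 tested, the brain-enriched list 24 rises and 6 falls among 31, and let-7 9 rises and 1 fall among 12, with medians of -5.57, 3.52 and 1.83.

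The difference of the change between deletion and control cells was tested as an interaction over all 12 libraries. Among 541 microRNAs 11 had a higher change in deletion cells (2.03%) and 19 a lower change (3.51%), 5.55% in all, at an edgeR adjusted p under 0.05. None of the 55 cluster microRNAs tested was called. Of the 69 cluster microRNAs only 2 had enough counts to be tested in deletion cells alone. The rest of the 55 entered through the control cells. With few or no counts in deletion cells their change there could not be estimated, so the absence of calls is no result. The other 486 microRNAs had a median difference of -0.09. The split depends on the scaling. With TMM without the cluster microRNAs it was 5 higher and 39 lower, and with library sizes from all features 1 higher and 47 lower. The 19 lower calls kept their direction under these and were all called again, whereas 5 and 1 of the 11 higher calls were called again. Without single libraries the counts ranged from 2 to 10 higher and from 14 to 28 lower, with 2 higher without deletion iN replicate B or control iN replicate A.

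All 19 microRNAs with a lower change had a negative change in both genotypes, and a more negative one in deletion cells. In 16 of the 19, all deletion iN libraries were below all control iN libraries, and in 9 of the 19 the ESC groups did not overlap. The 19 were picked on these same libraries, so these counts are a description and no support for the calls. The share over all tested microRNAs was not computed. CPM in the 4 groups is scaled over all 12 libraries and so differs slightly from the values above. Members of the miR-200 list (4 of 11 tested), of the cluster from miR-290 to miR-295 (3 of 13) and of the miR-17 to miR-92 list (3 of 26) were among them. MiR-429-3p had 116, 129 and 106 CPM in deletion iNs, 3748, 3422 and 3744 CPM in deletion ESCs, 456, 395 and 288 CPM in control iNs and 4145, 4206 and 4202 CPM in control ESCs. Deletion iNs lay below control iNs in every library, and deletion ESCs below control ESCs (interaction -1.49 ± 0.22 (SE, n = 3 each), edgeR adjusted p = 0.00139). MiR-106a-5p had 92.2, 73.6 and 89.0 CPM in deletion iNs, 8966, 8556 and 7969.6 CPM in deletion ESCs, 263, 262 and 196 CPM in control iNs and 10229, 9959 and 10140.3 CPM in control ESCs (interaction -1.25 ± 0.20 (SE, n = 3 each), edgeR adjusted p = 0.00208). MiR-20b-5p had 889.8, 799 and 853 CPM in deletion iNs, 34488, 45153 and 54260.2 CPM in deletion ESCs, 2737, 2329 and 1821 CPM in control iNs and 33229, 49230.4 and 45893 CPM in control ESCs (interaction -1.50 ± 0.26 (SE, n = 3 each), edgeR adjusted p = 0.00252). For both of these members of the X-linked cluster, deletion iNs were lower than control iNs in every library. For miR-205-5p and miR-34a-5p the interactions were -1.40 ± 0.25 (SE, n = 3 each), edgeR adjusted p = 0.00332, and -0.92 ± 0.16 (SE, n = 3 each), edgeR adjusted p = 0.00252. In RNA-seq scaled over 12 libraries the 11 pluripotency markers summed to 30.9 to 34.0 CPM in deletion iNs and 40.4 to 47.3 CPM in control iNs, with 2967 to 3130 CPM found for deletion ESCs and 3160 to 3315 CPM for control ESCs. Of the 11, 4 (Esrrb, Lin28a, Pou5f1 and Zfp42) were lower in all deletion iN libraries than in all control iN libraries and 2 (Klf4 and Tfcp2l1) were higher. The share of all genes apart in this way was not computed. Some of these values were near the floor. Pou5f1 had 0.41 to 0.63 CPM in deletion iNs and 0.70 to 1.51 CPM in control iNs, and Klf4 0.58 to 0.86 and 0.12 to 0.40 CPM. The part of residual stem cells in the interactions was not tested.

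The 11 microRNAs with a higher change had a positive change in both genotypes, and in 9 of them all deletion iN libraries were above all control iN libraries. The ESC groups were apart in 10 of the 11. These counts too are a description only, as the 11 were picked on the same libraries. MiR-6240 had 420.4, 399.6 and 445 CPM in deletion iNs, 1.59, 6.63 and 8.71 CPM in deletion ESCs, 135, 131 and 135 CPM in control iNs and 9.82, 9.17 and 14.1 CPM in control ESCs (interaction 2.71 ± 0.46 (SE, n = 3 each), edgeR adjusted p = 0.00252). Of the locus counts of miR-6240, 70.5 to 71.0% were assigned to the hairpin in deletion iNs and 69.6 to 98.9% in deletion ESCs. With hairpin and mature counts of a locus summed, the interaction of miR-6240 was 0.81 and was not called (edgeR adjusted p = 0.459), whereas the other 19 alternatives gave 2.15 to 3.14 and kept the call (edgeR adjusted p of at most 0.0101). Brain-enriched microRNAs (4 of 34 tested) and microRNAs between Meg3 and miR-379 (2 of 25) were among the 11. The list between Meg3 and miR-379 made up 7.43 to 8.12% of mature counts in deletion iNs, 3.33 to 3.66% in deletion ESCs. Control iNs had 5.85 to 6.73% and control ESCs 3.60 to 3.95%. The control totals include the cluster's own counts. The 12 neuronal markers summed to 11245 to 11479 CPM in deletion iNs and 10842 to 11148 CPM in control iNs.

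**Figure D4:**
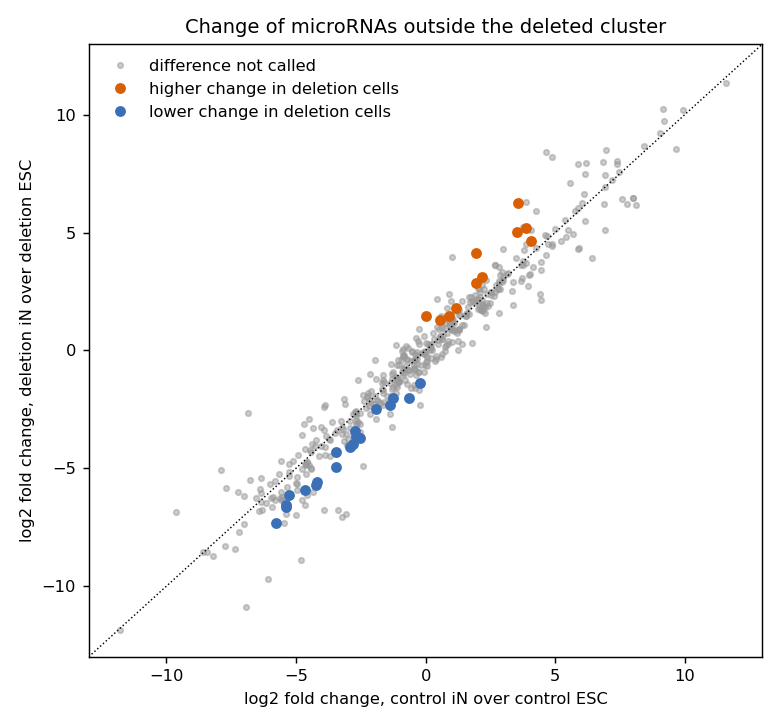
Log2 fold change of iNs over ESCs in deletion cells (vertical axis) against that in control cells (horizontal axis), 1 point per microRNA outside the removed cluster, with the 30 called interactions in colour. Points lie along the diagonal, and miR-429-3p lies below it at -4.96 in deletion cells and -3.46 in control cells.

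Many microRNAs lie in introns of protein-coding genes or in non-coding hosts, and the deletion RNA-seq allowed both to be compared. Of 58 listed pairs 42 were tested in both assays and 34 were called in both, of which 28 moved in the same direction (19 rose and 9 fell) and 6 in opposite directions. Over all features tested 87.9% of microRNAs and 89.4% of genes were called, so the number called in both says little about pairs. Across the 42 pairs, some of which share a microRNA or a host, Pearson r was 0.727 as a description. In RefSeq, the microRNA lay inside the gene on the same strand in 30 of the 42 pairs. Of these 30 pairs, 23 were called in both assays and 19 moved the same way. For 6 other pairs the gene or its strand was missing from the reference, and for 2 the microRNA was, so these were not placed. Ptprn2, a protein of dense-core vesicles, had 102, 91.1 and 91.4 CPM in deletion iNs, against 0.598, 0.68 and 0.737 CPM in deletion ESCs. It rose by 7.13 ± 0.11 on the log2 scale, and miR-153-3p in its intron by 6.16 ± 0.37. Astn1, a neuron-glia adhesion protein, rose by 6.56 ± 0.07 and miR-488-3p by 5.84 ± 0.45, and Aatk rose by 5.66 ± 0.16 and miR-338-3p by 5.13 ± 0.27. In these 3 pairs the fitted rise of the host was the larger, and that difference was not tested. Chrm2, a muscarinic receptor, rose by 7.48 ± 0.24, while its miR-490 did not pass the filter.

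The replicative helicase gene Mcm7 had 6.60, 6.95 and 6.58 CPM in deletion iNs, against 315, 286 and 286 CPM in deletion ESCs. Its log2 fold change was -5.46 ± 0.07, against -1.63 ± 0.17 for miR-93-5p and -1.63 ± 0.15 for miR-25-3p. The difference between the assays was not tested. In 5 pairs the host fell and the microRNA rose, namely Ctdsp1 with miR-26b-5p, Ctdsp2 and Ctdspl with miR-26a-5p, Nr6a1 with miR-181a-5p and Slit3 with miR-218-5p. Ctdsp1, a phosphatase that restrains neuronal genes, had 2.12, 1.79 and 1.67 CPM in deletion iNs, against 30.6, 27.5 and 29.4 CPM in deletion ESCs (-3.97 ± 0.11), whereas miR-26b-5p had a log2 fold change of 1.30 ± 0.17. Ctdsp2 and Ctdspl, the listed hosts of miR-26a-5p, are both among these 5 pairs, whereas Slit2, the other listed host of miR-218-5p, rose by 3.20 ± 0.07. Nr6a1 lies on the strand opposite to miR-181a, as Larp7 does to miR-302b. The fall of Ctdspl was -0.20 ± 0.09 (edgeR adjusted p = 0.049) and was not called under 8 of the 9 alternatives run, where the edgeR adjusted p was 0.0555 to 0.259. In the other pair with opposite directions, Ppargc1b rose by 0.46 ± 0.13 and miR-378a-3p fell, with a log2 fold change of -0.43 ± 0.17.

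**Figure D5:**
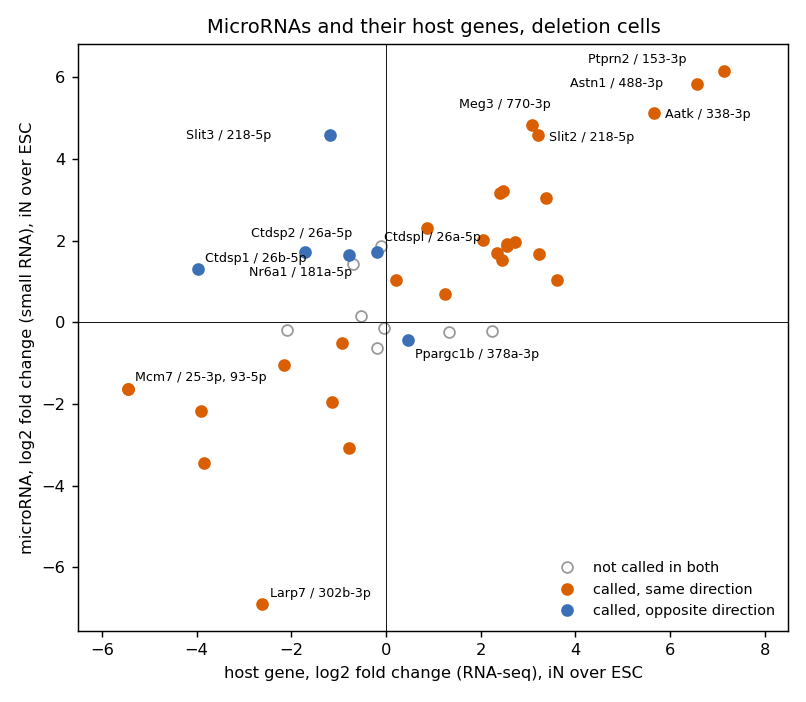
Log2 fold change, deletion iNs over deletion ESCs, of microRNAs (vertical axis, small RNA-seq) against their host genes (horizontal axis, RNA-seq), 1 point per pair. The 28 orange pairs moved the same way, and open circles mark pairs not called in both. The 6 blue pairs moved the opposite way, among them Ctdsp1 with miR-26b-5p at -3.97 for the host.

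Genes that make, load or degrade microRNAs changed in both directions. Of 29 symbols listed, older names of the same gene included, 18 were tested, 8 rose and 10 fell, with a median of -0.26. Over all genes tested 44.6% rose and 44.9% fell, so these counts are near the background and the genes are given for their values. Ago4 had 11.1, 11.2 and 10.0 CPM in deletion iNs, against 0.299, 0.366 and 0.316 CPM in deletion ESCs. Ago3 had 105, 104 and 105 CPM in deletion iNs, against 34.9, 40.0 and 42.6 CPM in deletion ESCs. Ago1 had 62.9, 58.7 and 62.0 CPM in deletion iNs, against 152, 145 and 145 CPM in deletion ESCs. Ago4 and Ago3 rose by 5.01 ± 0.19 and 1.41 ± 0.07, and Ago1 fell (-1.27 ± 0.05). Zswim8, the ubiquitin ligase adaptor of target-directed microRNA decay, had 151, 142 and 145 CPM in deletion iNs, against 28.1, 28.0 and 29.4 CPM in deletion ESCs (2.35 ± 0.06). Among genes of the let-7 switch, Lin28a and the stem cell ubiquitin ligase Trim71 had log2 fold changes of -5.04 ± 0.07 and -3.68 ± 0.06, and Lin28b of -0.24 ± 0.07 (edgeR adjusted p = 0.00436). Ran, the export GTPase, fell (-2.35 ± 0.04), and Dicer1 rose by 0.30 ± 0.04. The uridylyl transferases Tut4 and Tut7 had log2 fold changes of -0.68 ± 0.08 and 0.63 ± 0.06. Of the 7 other tested genes, Prkra, Adar and Dis3l2 rose by 1.60 ± 0.07, 1.00 ± 0.05 and 0.99 ± 0.09. Tent2, Ddx5, Tnrc6c and Tnrc6a fell, with log2 fold changes of -1.05 ± 0.06, -0.71 ± 0.04, -0.30 ± 0.05 and -0.28 ± 0.05. The 11 symbols that were not tested were not analysed here.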

How the data were processed

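Small RNA-seq was measured in 12 libraries and rRNA-depleted RNA-seq in 12, with 3 replicates per group, and the 6 deletion libraries of each assay were compared. Tools listed, in no order, by the submitters' processing notes include RSEM 1.2.30 as well as STAR 2.4.1d and cutadapt 1.4.2, and the build is mm10. Per the file headers, the authors deposited RSEM expected counts and posterior mean counts per transcript, mature microRNA or hairpin, and per gene for RNA-seq, not scaled to depth. Per the labels' protocols, 100 ng of total RNA went through the QIAseq miRNA kit with 16 PCR cycles and 40 bp single-end sequencing. Whether reads were collapsed by molecular identifier is not given in the sources used here. The authors' deposited tables hold log2 fold changes and normalised means, a depth-scaled signal, and these means named 828 of 1907 accessions (relative tolerance 1e-08), which held 99.99% of the mature counts of the deletion libraries. Gene symbols were found for 49035 of 52636 gene IDs.

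Expected counts were rounded, copies of a mature sequence were summed, and edgeR 4.0.16 in R 4.3.3 was run (TMM scaling and the quasi-likelihood test, after filterByExpr had removed features below its default rule at 10 counts, with calls at a Benjamini-Hochberg value under 0.05). SE is the log2 fold change over the square root of F. CPM uses the scaled library size. RNA-seq and seed family counts were fitted the same way. Seeds are bases 2 to 8. Arm use was tested with limma 3.58.1 on log2 ratios with a pseudocount of 0.5, for hairpins with a mean of at least 20 counts over both arms and 10 for the weaker. Floors are 3 counts over a group. The microRNA, interaction, RNA-seq gene and arm fits were run on simulated data, and the seed family and locus fits were not. For microRNAs and genes, fewer features were changed in the simulation than here, and its largest changes were smaller. It therefore does not test the scaling under changes of this extent.

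Members, lists and tests were chosen with earlier results of these data known. The text names the 10 most abundant microRNAs of each group, the 10 largest rises and falls whose groups did not overlap and whose average log2 CPM reached 4, up to 4 members per list, and up to 6 interactions, seed families, hairpins and host genes. Other names, such as family members, host partners and exceptions to a list, were chosen after their values were seen. Alternatives were the Wald test and the size factors that DESeq2 1.42.0 offers, other filters and scalings, a replicate block and each library left out. Posterior mean counts, locus sums, scaling to all features for interactions and families, and seed families with the microRNA fit's scaling were added after seeing the data. Antisense and near-identical genes may share counts, since the strand setting is not given in the sources used here.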

Additional observations from a re-analysis of the deposited data

Results flagged for a closer look

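The change of iNs over ESCs differed between deletion and control cells, by the interaction term of edgeR over 12 libraries at an adjusted p under 0.05, for 30 microRNAs. Differences are log2, deletion minus control. Among the miR-200 list they were -1.49 for miR-429-3p, -1.40 for miR-205-5p, -1.15 for miR-200a-3p and -0.99 for miR-200b-3p. Among members of the X-linked paralog cluster of miR-17 to miR-92 they were -1.50 for miR-20b-5p, -1.25 for miR-106a-5p and -0.85 for miR-363-3p. In the cluster from miR-290 to miR-295 they were -1.27 for miR-291a-5p, -1.14 for miR-292a-5p and -0.87 for miR-295-3p. The other lower changes were -1.55 for miR-150-5p, -1.38 for miR-30c-1-3p, -1.19 for miR-28a-3p, -1.18 for miR-146a-5p, -1.18 for miR-221-3p, -0.92 for miR-34a-5p, -0.75 for miR-23a-3p, -0.67 for miR-27a-3p and -0.58 for miR-21a-5p. These 19 had a negative change in both genotypes.

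The higher changes were 2.71 for miR-6240, 2.20 for miR-3078-5p, 1.51 for miR-135a-5p, 1.42 for miR-433-3p and 1.34 for miR-338-3p, and further 0.92 for miR-152-3p, 0.90 for miR-9-3p, 0.76 for miR-136-3p, 0.62 for miR-26a-5p, 0.59 for miR-9-5p and 0.57 for miR-218-5p. Of these 11, 1 was called again with library sizes from all features and 5 with TMM without the cluster microRNAs. With hairpin and mature counts of a locus summed, miR-6240 was at 0.81 and was not called (edgeR adjusted p = 0.459). MiR-433-3p and miR-136-3p lie between Meg3 and miR-379. Values of the 4 groups for miR-26a-5p, the most abundant of the higher ones, were 11408, 12044 and 12786 CPM in deletion iNs, 3762, 3472 and 3222 CPM in deletion ESCs, 10085, 9618 and 9196 CPM in control iNs and 4285, 4429.8 and 4138 CPM in control ESCs. The pluripotency and neuronal marker sums that moved beside these microRNAs are given with the interaction results, and their part was not tested.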

How the results depend on the processing

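The counts of microRNAs, seed families and RNA-seq genes called between deletion iNs and deletion ESCs stayed within 1.5 times of the reported ones under every alternative run, and leaving out single libraries did so too. The interaction did not. Against 11 higher and 19 lower, TMM without cluster microRNAs gave 5 and 39, no filter 7 and 31, the DESeq2 Wald test 19 and 37, library sizes from all features 1 and 47, and locus sums 19 and 26. Posterior mean counts gave 6 higher. Leaving out 1 library gave 2 to 10 higher and 14 to 28 lower. For arm use, a minimum of 50 for the weaker arm gave 6 and 16 against 22 and 32, and leaving out 1 library 12 to 22 and 20 to 30. Summing hairpin and mature counts of a locus reversed 19 of 398 called microRNAs, among them miR-335-3p (0.54), miR-431-3p (-0.41), miR-29b-2-5p (-0.42), miR-30d-3p (1.86), miR-30c-1-3p (0.76), miR-182-3p (2.502), miR-183-3p (2.79) and miR-191-3p (0.89), and the cause was not tested. Scaling to all features gave a microRNA median of -0.06, against -0.25. Families gave 147 rises and 102 falls with that scaling. A block on the replicate letter, with letters that correlated at -0.14, 0.03 and -0.08 and so were not taken to pair the libraries, gave 187 and 208 for microRNAs, 8 and 17 for the interaction, 21 and 31 for arms and 113 and 139 for families. With 3 libraries per group, changes of microRNAs near the filter of 10 counts are the least certain.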
